A study of Homo sapiens with 60 samples.

Results

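The genes described here are 37 named members of a hypoxia and sugar-burning module, 20 reported targets of hypoxia-inducible factor 1 (HIF1) and 17 genes of glycolysis. Symbols were matched to the Ensembl identifiers of the deposited count table, and each of the 37 matched 1 identifier among 60675. All 37 were among the 16445 genes with enough counts to be tested. The lowest count of a member in any library was 6, for ANKRD37 and LOX, and the lowest count of a glycolytic member was 273, for ENO2.

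The 60 libraries hold RNA of HT29, an established cell line from a human colorectal adenocarcinoma, taken 24 h after addition of a tonifying herbal extract or of vehicle. Palmul-tang and Sibjeondaebo-tang were multi-herb formulas given as water extracts, and Poria, Atractylodes, Glycyrrhiza (licorice), Ginseng and Angelica were ethanol extracts. Glycyrrhiza was given at 14 (low), 70 (medium) and 350 µg/mL (high), Angelica at 12.8, 64 and 320 µg/mL, and the other 5 extracts at 20, 100 and 500 µg/mL. Each dose of 6 extracts and the vehicle had 3 libraries, and each dose of Angelica had 1. Vehicle is 0.1% DMSO by the sample labels but 2% DMSO by the description of the series. All libraries came from 1 cell line, and the labels do not say that replicates were separate cultures, so p-values refer only to the spread among libraries, part or all of which may be technical. All 60 titles name the same batch (BatchC). By the shorter sample names, Palmul-tang and Sibjeondaebo-tang share a set label, as do Poria with Atractylodes and Glycyrrhiza with Ginseng, while Angelica and vehicle each have one of their own. A difference from vehicle and a difference between sets therefore cannot be told apart, while high and low doses of an extract share a set.

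HIF1 is a transcription factor made of an oxygen-regulated subunit, HIF1A, and a stable partner, ARNT. In oxygen, prolyl hydroxylases mark HIF1A for destruction through VHL. In low oxygen HIF1 binds short elements in DNA and turns on genes for glucose uptake, lactate release, blood vessel growth and collagen processing. Glycolysis splits glucose to pyruvate, and many of its enzymes are themselves HIF1 targets, but they are also under the control of other factors and are highly expressed in most tumour lines. Colorectal tumour cells are known for using glycolysis in the presence of oxygen.

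Libraries held 19.31 to 29.62 M counts (median 25.06 M), those of vehicle 19.79 to 20.88 M. Mitochondrial genes took 6.83% to 8.83% of counts as means of the treated groups of 3 libraries, and 10.2% ± 1.36 in vehicle (SD, n = 3). Of 12 colon epithelium markers all had counts in every library, with EPCAM at a median of 545.3 CPM (library-scaled counts) and KRT8 at 6874 CPM, while CDX1 was at 0.905 CPM, CEACAM5 at 7.01 CPM and GPA33 at 3.75 CPM. Of the defining markers of other cell types, KDR was at 0 in 60 libraries, CD3E in 59 and COL1A2 in 57, while COL1A1 (median 1.34 CPM), LUM (0.85), PECAM1 (1.66) and CD14 (3.55) had counts in all 60. These marker medians are relative to all counts of a library, with no TMM factor. CPM of the members below are relative to the library total over tested genes, scaled by TMM factors. A count of RNA per library cannot tell fewer cells from less RNA per cell.

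The promoters of members whose levels moved with dose in opposite directions are shown first, since both kinds carry the core letters that HIF1 is known to bind. The windows are the 250 bases before a RefSeq transcript start on GRCh38.p14, printed along the gene's strand. Capitals mark ACGTG or GCGTG on either strand, which reads CACGT or CACGC on the printed strand when the match lies on the other one. Matches on the 2 strands overlap where CACGTG occurs. SLC16A3 (the lactate exporter MCT4) and ENO2 (neuron-type enolase) were higher at the high dose of Glycyrrhiza, and CA9 (a cell-surface carbonic anhydrase) and LDHA (lactate dehydrogenase A) were lower there. The SLC16A3 window is at chr17:82228792-82229041 and is 1 of its 5 windows, that of ENO2 is at chr12:6914330-6914579, that of CA9 is at chr9:35673678-35673927, and that of LDHA is at chr11:18394313-18394562 and is 1 of its 2, all on the plus strand.
SLC16A3: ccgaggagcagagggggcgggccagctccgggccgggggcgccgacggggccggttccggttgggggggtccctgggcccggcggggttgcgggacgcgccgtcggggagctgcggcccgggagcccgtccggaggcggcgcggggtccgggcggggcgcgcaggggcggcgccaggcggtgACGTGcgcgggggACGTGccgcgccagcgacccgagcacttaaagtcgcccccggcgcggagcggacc
ENO2: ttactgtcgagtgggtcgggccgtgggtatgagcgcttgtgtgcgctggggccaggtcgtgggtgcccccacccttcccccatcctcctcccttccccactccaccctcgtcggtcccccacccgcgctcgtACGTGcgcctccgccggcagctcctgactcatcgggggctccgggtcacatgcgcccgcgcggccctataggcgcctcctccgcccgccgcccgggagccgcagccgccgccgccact
CA9: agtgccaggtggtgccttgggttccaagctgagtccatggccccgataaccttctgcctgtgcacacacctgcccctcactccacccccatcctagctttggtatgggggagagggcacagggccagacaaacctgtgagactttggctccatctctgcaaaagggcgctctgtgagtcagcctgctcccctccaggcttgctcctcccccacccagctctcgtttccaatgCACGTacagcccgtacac
LDHA: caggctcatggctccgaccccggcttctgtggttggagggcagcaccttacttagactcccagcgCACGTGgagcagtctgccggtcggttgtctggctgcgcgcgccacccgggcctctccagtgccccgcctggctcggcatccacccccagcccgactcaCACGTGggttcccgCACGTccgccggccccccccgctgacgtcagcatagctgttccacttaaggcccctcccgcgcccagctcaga
The LDHA window holds 5 matches in 3 separate places, SLC16A3 holds 2, and ENO2 and CA9 hold 1 each. The printed windows of SLC16A3 and LDHA were chosen by their matches, and some of the other SLC16A3 windows hold none. The CA9 match starts 18 bases before the transcript start, and the SLC16A3 matches start 68 and 55 bases before it. Of the 34 members with a window, 29 (85.3%) had at least 1 match, 14 of 17 HIF1 targets and 15 of 17 glycolytic genes. Of all 27305 gene symbols with a window 47.4% had one. Counted by window, 63.6% of the members' 66 windows held a match, against 43.2% of all 35116 windows of the same length. No window was given for VEGFA, NDRG1 and BNIP3L. Among members that changed with the Glycyrrhiza dose, the only windows of SLC2A1 and P4HA2 were without these letters, as were some of the PFKP windows. A match is a run of letters and not a shown binding site.

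Levels of different genes were compared as TPM, which divide counts by gene length. In vehicle GAPDH, the glyceraldehyde phosphate dehydrogenase, led at 3839 ± 73.1 TPM (SD, n = 3 for each TPM value). It was followed by the aldolase ALDOA at 935.0 ± 31.1, the pyruvate kinase PKM at 916.2 ± 37.1, the enolase ENO1 at 828.7 ± 100.0 and the triose phosphate isomerase TPI1 at 782.2 ± 54.5 TPM. ALDOA, PKM and ENO1 lie within 1 or 2 SD of each other. The highest HIF1 target was SLC2A1, the glucose transporter GLUT1, at 339.1 ± 33.1 TPM, followed by CA9 at 57.2 ± 7.13 TPM. VEGFA, the main blood vessel growth factor, was at 14.4 ± 0.513 TPM, and LOX, a collagen cross-linking oxidase, was lowest at 0.488 ± 0.103 TPM. Within the families of enzymes with the same reaction, ALDOA made up 97.9% ± 0.148 of ALDOA plus ALDOC, ENO1 98.6% ± 0.0649 of ENO1 plus ENO2, HK1 74.8% ± 2.31 of HK1 plus HK2, and PFKP 63.5% ± 0.533 of the 3 phosphofructokinases. GAPDH, ENO1, ALDOA, PGAM1, PGK1, PKM, LDHA and TPI1 have near-identical pseudogene copies, and the authors' expected counts split shared reads by estimated probability, so their levels are uncertain to that extent.

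High and low doses of each extract were compared to ask what depended on dose, with no vehicle library involved. The words rose, fell and called refer to a Benjamini-Hochberg adjusted p below 0.05 over all 16445 genes in edgeR's quasi-likelihood test. Log2 fold changes are high minus low dose with their standard error. With Glycyrrhiza 9 of the 20 HIF1 targets rose and 1 fell, and 4 of the 17 glycolytic genes rose and 2 fell, where 14% of all tested genes rose and 10.9% fell. The median log2 fold change was 0.17 over the HIF1 targets, -0.03 over the glycolytic genes and -0.01 over all tested genes. Without the library Glycyrrhiza high dose replicate 1, 10 of the 37 members were called in place of 16. The HIF1 targets that rose were VEGFA, NDRG1, LOX, P4HA2, SLC2A1, INSIG2, ERO1A, P4HA1 and KDM3A. The HIF1 prolyl hydroxylases EGLN1 and EGLN3 and the mitophagy genes BNIP3 and BNIP3L did not pass the test.

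**Figure D1:**
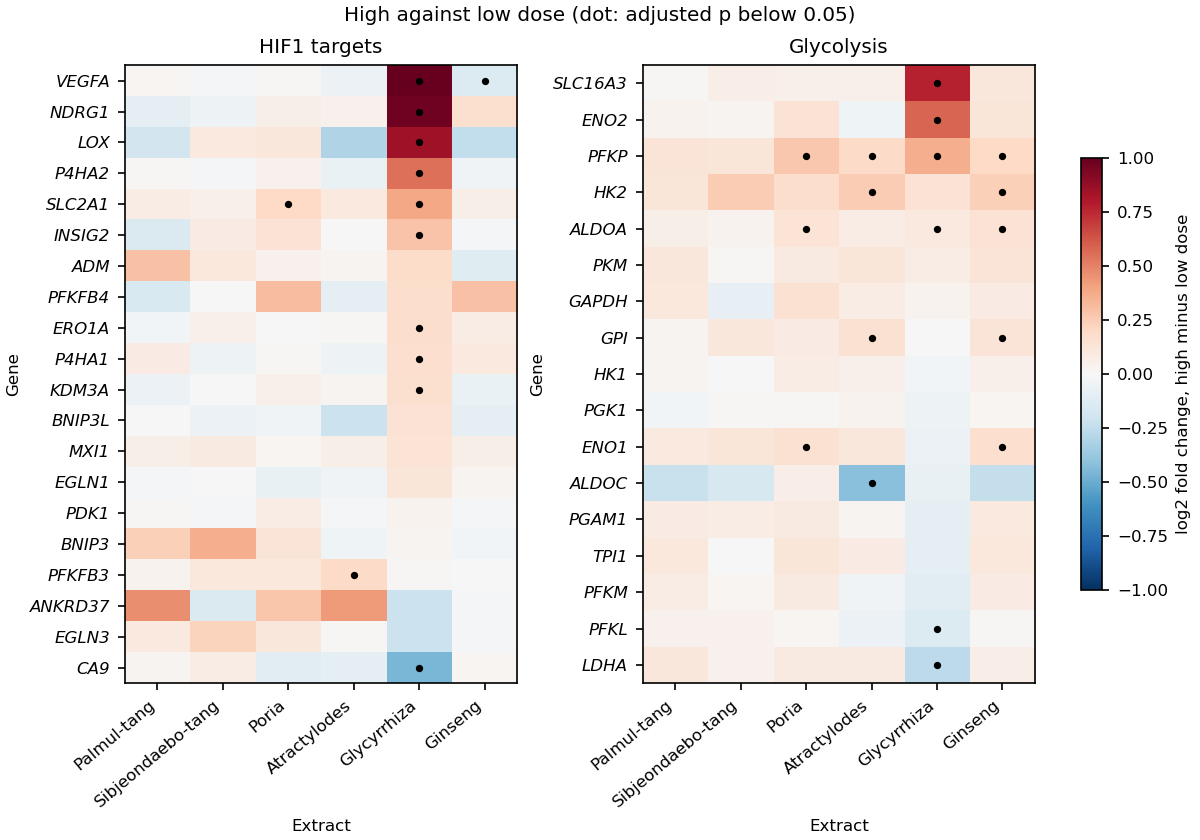
Log2 fold change of each member between high and low dose (colour, from -1 to 1) for 6 extracts (columns), with HIF1 targets on the left and glycolytic genes on the right, sorted by the Glycyrrhiza value. Dots mark an adjusted p below 0.05. The Glycyrrhiza column runs from 1.00 for VEGFA to -0.45 for CA9, and PFKP carries a dot in 4 of 6 columns.

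VEGFA (ENSG00000112715, chr6:43770184-43786487) changed most among the HIF1 targets. It was at 68.4, 68.3 and 69.4 CPM in vehicle, at 69.8, 65.8 and 65.7 CPM with low-dose Glycyrrhiza, at 68.1, 70.3 and 67.2 CPM with the medium dose, and at 136, 133 and 133 CPM with the high dose. The high-dose libraries thus stood apart from all the others, and the medium dose overlapped the low dose and vehicle. The log2 fold change of high against low dose was 1.00 ± 0.04 (adjusted p = 7.07e-27).

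NDRG1 (ENSG00000104419), a stress-responsive growth regulator, was at 28.1, 31.9 and 32.8 CPM with high-dose Glycyrrhiza, against 14.2, 16.0 and 17.2 CPM with the low dose. The groups did not overlap, and the log2 fold change was 0.97 ± 0.09 (adjusted p = 2.31e-12). P4HA2 (ENSG00000072682), a collagen prolyl 4-hydroxylase subunit, was at 28.8, 26.9 and 27.5 CPM with the high dose, against 18.8, 19.8 and 18.3 CPM with the low dose. It rose by 0.55 ± 0.07 (adjusted p = 5.91e-09), with no overlap. Its relative P4HA1 also rose, by 0.17 ± 0.06 (adjusted p = 0.0206). That call was lost without high-dose replicate 1 (adjusted p = 0.105), without low-dose replicate 1 (0.107) and with no filter on low counts (0.0706).

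SLC2A1 (ENSG00000117394, chr1:42925375-42959176) was at 685, 673 and 705 CPM with high-dose Glycyrrhiza, against 549.8, 515 and 514 CPM with the low dose. All 3 high-dose libraries lay above the low-dose ones, and the rise was 0.39 ± 0.04 (adjusted p = 5.75e-10). INSIG2, a sterol-sensing membrane protein, was at 30.4, 28.4 and 26.7 CPM with the high dose, against 23.4, 23.1 and 23.8 CPM with the low dose. It rose by 0.28 ± 0.08 (adjusted p = 0.00584), and without high-dose replicate 1 the adjusted p was 0.0626. ERO1A, an oxidase of disulfide formation in the endoplasmic reticulum, was at 81.6, 82.0 and 78.7 CPM with the high dose, against 67.3, 68.5 and 78.3 CPM with the low dose. The highest low-dose library nearly reached the lowest high-dose one, and the rise was 0.18 ± 0.05 (adjusted p = 0.0059, and 0.0696 without low-dose replicate 1). KDM3A, a histone demethylase, was at 45.2, 44.2 and 39.1 CPM with the high dose, against 38.5, 39.0 and 37.6 CPM with the low dose, a rise of 0.16 ± 0.05 (adjusted p = 0.0181). That call did not hold without high-dose replicate 1 (adjusted p = 0.161), without high-dose replicate 2 (0.0907), without low-dose replicate 3 (0.0774) or with no filter on low counts (0.0809).

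LOX was at 1.11, 1.13 and 0.563 CPM with high-dose Glycyrrhiza, against 0.341, 0.303 and 0.870 CPM with the low dose. The groups overlapped at these low counts. The log2 fold change was 0.85 ± 0.31 (adjusted p = 0.0422), and 7 of its alternatives lost the call, with adjusted p from 0.0788 to 0.231.

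CA9 (ENSG00000107159, chr9:35673856-35681159) moved the other way. It was at 34.3, 36.0 and 42.5 CPM with low-dose Glycyrrhiza, at 37.1, 36.7 and 38.0 CPM with the medium dose, and at 25.7, 28.3 and 28.6 CPM with the high dose. The high-dose libraries were the lowest 3 of these 9. The log2 fold change of high against low dose was -0.45 ± 0.06 (adjusted p = 1.44e-07).

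The remaining HIF1 targets did not pass the test for dose with Glycyrrhiza. EGLN1, the main HIF1 prolyl hydroxylase, had a log2 fold change of 0.12 (95% confidence interval 0.02 to 0.22, adjusted p = 0.0623), and EGLN3, its relative that low oxygen induces, one of -0.22 (-0.39 to -0.05, adjusted p = 0.055). PDK1, a kinase that inhibits pyruvate dehydrogenase, was at 0.04 (-0.10 to 0.18), and PFKFB3, which makes an activator of phosphofructokinase, at 0.02 (-0.09 to 0.12). ANKRD37, with few counts, had the widest interval, -1.14 to 0.72.

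The 4 glycolytic genes that rose with Glycyrrhiza were the lactate exporter, the minor enolase, a phosphofructokinase and the main aldolase. SLC16A3 (ENSG00000141526, chr17:82228397-82261129) was at 80.7, 92.7 and 84.3 CPM with the high dose, against 52.7, 48.3 and 49.9 CPM with the low dose. The groups were far apart, and the log2 fold change was 0.77 ± 0.07 (adjusted p = 2.29e-13). ENO2 (ENSG00000111674, chr12:6913745-6923698) was at 31.5, 28.8 and 30.1 CPM with the high dose, against 21.1, 20.0 and 19.2 CPM with the low dose. It rose by 0.58 ± 0.07 (adjusted p = 1.32e-09), with no overlap, and its share of ENO1 plus ENO2 TPM was 2.19% ± 0.114 at the high dose and 1.41% ± 0.0481 at the low dose (SD, n = 3).

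PFKP (ENSG00000067057, chr10:3066333-3137712), the platelet-type phosphofructokinase, was at 177, 184 and 185 CPM with high-dose Glycyrrhiza, against 146, 139 and 140.0 CPM with the low dose. It rose by 0.36 ± 0.04 (adjusted p = 1.26e-11), while the liver type PFKL fell by 0.14 on the log2 scale (adjusted p = 0.03). PFKL was at 77.6, 77.8 and 76.5 CPM at the high dose, against 82.6, 85.4 and 87.7 CPM at the low dose, and its call was lost in 6 alternatives, with adjusted p up to 0.119. PFKP made up 68.1% ± 0.44 of phosphofructokinase TPM at the high dose and 60.4% ± 0.843 at the low dose (SD, n = 3).

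LDHA (ENSG00000134333, chr11:18394388-18408425) was at 923, 909 and 912 CPM with low-dose Glycyrrhiza, at 906, 899 and 904 CPM with the medium dose, and at 743, 754 and 787 CPM with the high dose. Its 3 high-dose libraries lay below the other 6, and the log2 fold change of high against low dose was -0.26 ± 0.04 (adjusted p = 4.62e-07). LDHA, which makes lactate, thus fell while SLC16A3, which exports it, rose. ALDOA was at 1332, 1304 and 1353 CPM with the high dose, against 1279, 1229 and 1219 CPM with the low dose, a rise of 0.10 ± 0.03 (adjusted p = 0.0292) that was lost in 6 alternatives (adjusted p up to 0.21). The other 11 glycolytic genes were not called, among them GAPDH at 0.04 (-0.10 to 0.17), GPI, the glucose phosphate isomerase, at -0.01 (-0.08 to 0.06) and PGK1, the phosphoglycerate kinase, at -0.05 (-0.14 to 0.04).

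**Figure D2:**
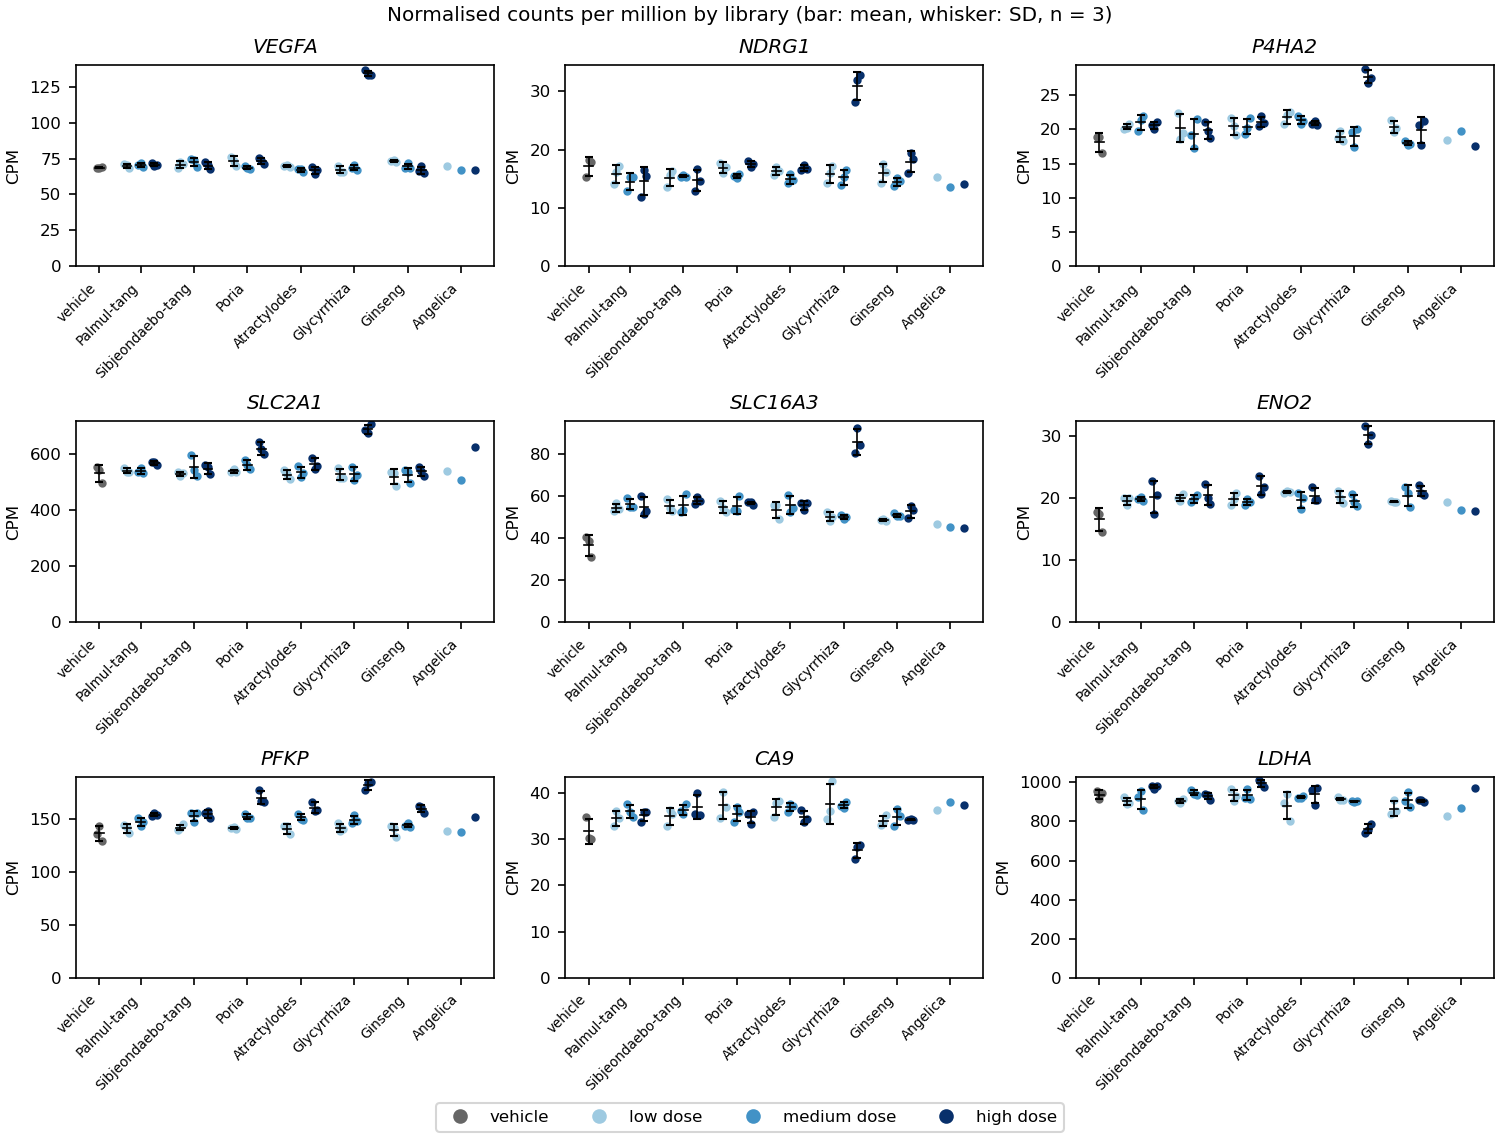
Normalised CPM of 9 members in each of 60 libraries (points), by extract, with vehicle at the left and doses low to high within each extract. Bars and whiskers are the mean and SD of 3 libraries, and Angelica has 1 library a dose. The dark high-dose points of Glycyrrhiza stand above the rest for VEGFA, at 133 to 136 CPM, and below the rest for LDHA, at 743 to 787 CPM.

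With the other extracts fewer members moved with dose, and these were mostly glycolytic. With Palmul-tang and Sibjeondaebo-tang no member was called, where 0.152% and 0.371% of all tested genes were. At an unadjusted p below 0.05 the numbers were 1 HIF1 target and 6 glycolytic genes for Palmul-tang, and 3 and 5 for Sibjeondaebo-tang, and DESeq2 called 0 members for Palmul-tang and 2 for Sibjeondaebo-tang. Poria raised SLC2A1, ALDOA, ENO1 and PFKP, where 1.02% of all tested genes rose. Low-dose Poria replicate 1 had the lowest within-group Pearson's r over genes, 0.9954 with replicate 2 and 0.996 with replicate 3. Its mitochondrial share was 9.71%, against 6.69% and 7.61% in low-dose Poria replicates 2 and 3. Atractylodes raised PFKFB3, GPI, HK2 and PFKP and lowered ALDOC, where 1.93% rose and 2.01% fell. Ginseng raised ALDOA, ENO1, GPI, HK2 and PFKP and lowered VEGFA, where 1.29% rose and 1.23% fell. With the replicate number as a block, these 6 Ginseng calls held and PKM (0.13 ± 0.04, adjusted p = 0.0416) and ALDOC (-0.24 ± 0.07, adjusted p = 0.0329) were called as well. That block was shared by all 57 libraries and does not pair the Ginseng libraries alone. No paired Ginseng fit was run. The median log2 fold change of the 17 glycolytic genes was 0.09 with Poria, 0.07 with Atractylodes and 0.11 with Ginseng, and that of the 20 HIF1 targets was 0.05, -0.01 and -0.01, with medians over all tested genes between -0.004 and -0.001. Without single libraries the counts of called members were 1 to 3 for Poria, 3 to 5 for Atractylodes and 2 to 4 for Ginseng, and with the 6 libraries of each comparison fitted alone they were 1, 2 and 0.

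PFKP rose with dose in 4 of 6 extracts and was above 0 in all 6. With Poria it was at 177, 167 and 165 CPM at the high dose, against 141, 142 and 140 CPM at the low dose, a log2 fold change of 0.27 ± 0.04 (adjusted p = 1.02e-06). With Atractylodes it was at 166, 157 and 158 CPM, against 143, 143 and 135 CPM, a change of 0.19 ± 0.04 (adjusted p = 0.000249). With Ginseng it was at 162, 161 and 155 CPM, against 143, 141 and 132 CPM, a change of 0.20 ± 0.04 (adjusted p = 0.000354). In none of these 3 did the groups overlap. Its change was 0.12 or more with Palmul-tang and Sibjeondaebo-tang too, where it did not pass the test.

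HK2, the regulated hexokinase at the entry of glycolysis, was at 69.8, 62.3 and 61.3 CPM with high-dose Atractylodes, against 57.9, 54.8 and 49.8 CPM with the low dose, a rise of 0.25 ± 0.07 (adjusted p = 0.0161). With Ginseng it was at 65.6, 63.1 and 65.6 CPM, against 58.4, 51.0 and 55.7 CPM, a rise of 0.24 ± 0.07 (adjusted p = 0.0433). Neither pair of groups overlapped. GPI, the next enzyme, was at 837, 788 and 828 CPM with high-dose Atractylodes, against 745, 756 and 701 CPM with the low dose, a rise of 0.16 ± 0.04 (adjusted p = 0.00428). With Ginseng GPI was at 802, 831 and 866 CPM, against 764, 724 and 799.6 CPM, a rise of 0.13 ± 0.04 (adjusted p = 0.0359), with no overlap.

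ENO1 was at 1923, 1890 and 1928 CPM with high-dose Poria, against 1688, 1766 and 1710 CPM with the low dose (0.15 ± 0.04, adjusted p = 0.0332). With Ginseng it was at 1954, 1881 and 1721 CPM, against 1676, 1716 and 1557 CPM (0.17 ± 0.04, adjusted p = 0.0129), with the lowest high-dose library just above the highest low-dose one. ALDOA was at 1424, 1345 and 1378 CPM with high-dose Poria, against 1301, 1230 and 1243 CPM (0.14 ± 0.03, adjusted p = 0.0211). With Ginseng it was at 1390, 1395 and 1292 CPM, against 1230, 1288 and 1178 CPM (0.14 ± 0.03, adjusted p = 0.0118). All 4 of these are rises of about the same size on genes with high counts.

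SLC2A1 was at 642, 615 and 597 CPM with high-dose Poria, against 534, 544 and 535 CPM with the low dose, a rise of 0.20 ± 0.04 (adjusted p = 0.00486) with no overlap. PFKFB3 was at 37.8, 36.9 and 34.8 CPM with high-dose Atractylodes, against 31.6, 31.2 and 33.3 CPM with the low dose (0.19 ± 0.05, adjusted p = 0.0215). ALDOC, the brain-type aldolase, was at 14.7, 14.3 and 15.7 CPM with high-dose Atractylodes, against 20.2, 21.5 and 18.0 CPM with the low dose. Its log2 fold change was -0.42 ± 0.07 (adjusted p = 9.78e-05), and the high-dose libraries were below all the others of that extract, since the medium dose was at 20.4, 21.1 and 19.2 CPM. VEGFA was at 66.2, 69.5 and 64.6 CPM with high-dose Ginseng, against 73.3, 73.9 and 72.4 CPM with the low dose (-0.13 ± 0.04, adjusted p = 0.0327), opposite in sign to Glycyrrhiza.

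The dose response of each extract was then set against the mean dose response of the other 5 in the same fit. For Glycyrrhiza 22 of the 37 members differed. Of the HIF1 targets 10 had a larger and 2 a smaller or more negative log2 dose change than the other extracts, and of the glycolytic genes 3 had a larger and 7 a smaller one, where 12.3% of all tested genes were larger and 9.2% smaller. The largest differences were 1.04 ± 0.04 for VEGFA (adjusted p = 8.51e-26), 0.95 ± 0.10 for NDRG1 (1.42e-10), 0.95 ± 0.34 for LOX (0.0412), 0.71 ± 0.07 for SLC16A3 (6.47e-11), 0.56 ± 0.07 for P4HA2 (5e-08) and 0.53 ± 0.07 for ENO2 (2.58e-07). CA9 differed by -0.44 ± 0.07 (2.37e-06), LDHA by -0.35 ± 0.04 (1.13e-08), EGLN3 by -0.30 ± 0.09 (0.0138) and ENO1 by -0.19 ± 0.04 (0.00107). With no filter on low counts 13 members differed in place of 22, and without Glycyrrhiza high-dose replicate 1, 12 did.

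The 7 glycolytic genes with a smaller dose change under Glycyrrhiza were ENO1, GPI, LDHA, PFKL, PFKM, PGAM1 and TPI1. Their high-against-low changes ran from -0.26 to -0.01 with Glycyrrhiza, and only LDHA and PFKL of them fell by the dose test itself. TPI1 was at 672, 703 and 693 CPM with the high dose, against 766, 733 and 714 CPM with the low dose, with no overlap but an adjusted p of 0.177. PGAM1, the phosphoglycerate mutase, was at 259, 244 and 244 CPM, against 269, 249 and 275 CPM, and PFKM, the muscle-type phosphofructokinase, at 61.9, 69.1 and 65.5 CPM, against 71.1, 69.0 and 70.9 CPM. In both of these the groups overlapped. EGLN3 was at 7.52, 6.87 and 8.31 CPM, against 8.48, 8.98 and 9.05 CPM, and EGLN1 at 51.1, 51.7 and 48.5 CPM, against 43.9, 46.7 and 48.4 CPM. BNIP3L was at 16.7, 14.6 and 16.1 CPM, against 14.4, 14.2 and 14.3 CPM. Each of these 3 was called against the other extracts but not by dose. Their high- and low-dose libraries did not overlap, but narrowly so for EGLN1 (48.5 against 48.4 CPM) and BNIP3L (14.6 against 14.4 CPM). How many of all tested genes had no overlap between high and low dose was not counted.

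For the other extracts a single member, VEGFA, differed in this comparison, with Sibjeondaebo-tang (-0.18 ± 0.04, adjusted p = 0.00793), Atractylodes (-0.24 ± 0.04, 0.000331) and Ginseng (-0.32 ± 0.04, 1.24e-06), where 0.809%, 0.213% and 0.0912% of all tested genes were lower. The mean of the other 5 holds the Glycyrrhiza value of 1.00 in each of these cases, and VEGFA's own dose changes outside Glycyrrhiza ran from -0.13 to 0.02. No member was called for Palmul-tang and Poria, where 0.669% and 0.14% of all tested genes were. At an unadjusted p below 0.05 there were 4 HIF1 targets and 3 glycolytic genes for Palmul-tang and 1 and 2 for Poria, and DESeq2 called 0 for both.

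High doses were also compared directly within each pair of extracts that share a set. Between Palmul-tang and Sibjeondaebo-tang, both at 500 µg/mL, 0% of tested genes were called and so no member. At an unadjusted p below 0.05 there were 1 HIF1 target and 2 glycolytic genes, and DESeq2 called 0 members. The log2 differences of the glycolytic genes lay between -0.08 and 0.14. Between Poria and Atractylodes, both at 500 µg/mL, ALDOC and VEGFA were called, both higher with Poria, where 0.535% of genes were. ALDOC was at 23.0, 22.2 and 20.0 CPM with Poria, against 14.7, 14.3 and 15.7 CPM with Atractylodes, a log2 difference of 0.55 ± 0.07 (adjusted p = 1.25e-06). VEGFA was at 75.4, 74.0 and 71.0 CPM with Poria, against 69.1, 64.3 and 66.9 CPM with Atractylodes, a difference of 0.14 ± 0.04 (adjusted p = 0.0402), a call lost without single libraries.

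Glycyrrhiza and Ginseng differ in their high dose, 350 and 500 µg/mL. Between them 9 HIF1 targets were higher and 1 lower with Glycyrrhiza, and 3 glycolytic genes were higher and 4 lower, where 13.3% of all genes were higher and 9.98% lower. Without Glycyrrhiza high-dose replicate 1, 5 HIF1 targets were higher and 1 lower. VEGFA was 1.01 ± 0.04 higher (adjusted p = 4.09e-27), NDRG1 0.79 ± 0.09, SLC16A3 0.70 ± 0.07 and ENO2 0.51 ± 0.07. CA9 was lower by -0.31 ± 0.06, LDHA by -0.25 ± 0.04, GPI by -0.17 ± 0.04, ENO1 by -0.16 ± 0.04 and PGAM1 by -0.12 ± 0.04. In LDHA the 3 Ginseng libraries were at 909.6, 909 and 899 CPM, above the 743 to 787 CPM of Glycyrrhiza.

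Other genes of the pathway were counted from lists that do not overlap the members. Between high and low Glycyrrhiza 14% of all tested genes rose and 10.9% fell. Of 11 genes of the HIF machinery 9 were tested. With high against low Glycyrrhiza HIF1A rose by 0.21 ± 0.05 (adjusted p = 0.00146) and EPAS1, the second oxygen-regulated subunit, by 0.27 ± 0.09 (adjusted p = 0.022), and 7 did not pass the test. With the other 5 extracts 0 of 9 were called. Of 16 tested further reported HIF targets 5 rose and 2 fell with Glycyrrhiza, with a median of 0.09. VLDLR, a lipoprotein receptor, rose by 1.53 ± 0.11 (adjusted p = 1.3e-16), and CA12, a carbonic anhydrase like CA9, by 0.62 ± 0.04 (adjusted p = 4.69e-19). CA12 and CA9 thus went in opposite directions. Of 23 tested genes of pyruvate handling and rarer isoenzymes 6 rose and 2 fell. PCK2, the mitochondrial enzyme from oxaloacetate to phosphoenolpyruvate, rose by 1.31 ± 0.06 (adjusted p = 1.67e-22), PDK4, a relative of PDK1, by 1.11 ± 0.10 (adjusted p = 6.26e-13), and HKDC1, a hexokinase-like protein, by 0.61 ± 0.05 (adjusted p = 5.79e-13).

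The high dose of Glycyrrhiza also moved markers of the cells themselves. Of 12 colon epithelium markers 4 rose and 2 fell between high and low dose, where 14% of all tested genes rose and 10.9% fell. The summed level of these markers was 13615 to 13674 CPM with the high dose, against 12601 to 13557 CPM with the low dose. CEACAM5 rose by 1.27 ± 0.11 and GPA33 fell by 0.91 on the log2 scale. The summed level of 6 fibroblast markers was 2.99 to 3.91 CPM, against 2.07 to 2.33 CPM, of 4 endothelial markers 0.977 to 1.73 CPM, against 1.597 to 1.72 CPM, and of 5 blood cell markers 3.54 to 4.47 CPM, against 3.08 to 4.14 CPM. Mitochondrial counts took 8.18% ± 0.489 at the high dose and 7.56% ± 0.523 at the low dose (SD, n = 3). The part of these shifts in the members' changes was not tested.

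Against vehicle, all comparisons use the same 3 vehicle libraries, so the extracts are not independent of each other here. At the high doses 59 of 102 gene-by-extract pairs of glycolytic genes were higher and 4 lower, and 22 of 120 pairs of HIF1 targets were higher and 5 lower. Of all tested genes 11.7% were higher and 9.95% lower with Palmul-tang, 14.2% and 13.1% with Sibjeondaebo-tang, 13.4% and 11.6% with Poria, 11.9% and 10.6% with Atractylodes, 18.8% and 15.5% with Glycyrrhiza, and 10.3% and 8.57% with Ginseng. The medians of the glycolytic genes lay between 0.11 and 0.19 and those of the HIF1 targets between -0.01 and 0.12, while the medians over all tested genes were within 0.01 of 0. At the medium doses 47 of 102 glycolytic pairs were higher and 1 lower, and 10 of 120 HIF1 target pairs were higher and 2 lower. Among all genes 11%, 11.2%, 10.9%, 11.3%, 7.58% and 5.99% were higher there, in the same order of extracts, and 10.2%, 8.9%, 9.64%, 9.44%, 5.52% and 4.13% lower. At the low doses 41 glycolytic pairs were higher and 5 lower, and 5 HIF1 target pairs were higher and 2 lower, where 10.8%, 10.8%, 10.1%, 11.6%, 9.31% and 6.91% of all genes were higher and 9.67%, 9.26%, 8.42%, 10.8%, 8.27% and 6.06% lower.

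These counts changed when vehicle replicate 3 was left out and when the mitochondrial share was a covariate. Over the 18 comparisons 147 glycolytic pairs were higher and 10 lower. Without vehicle replicate 3 these were 107 and 3, and with the covariate 90 and 3. For the HIF1 targets 37 pairs were higher and 9 lower, 12 and 8 without vehicle replicate 3, and 13 and 14 with the covariate. With the replicate number as a block 154 glycolytic pairs were higher and 14 lower, and 47 HIF1 target pairs were higher and 15 lower. How many of all tested genes were called in most or all of the 18 comparisons was not counted. The counts per gene below therefore have no such share beside them.

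**Figure D3:**
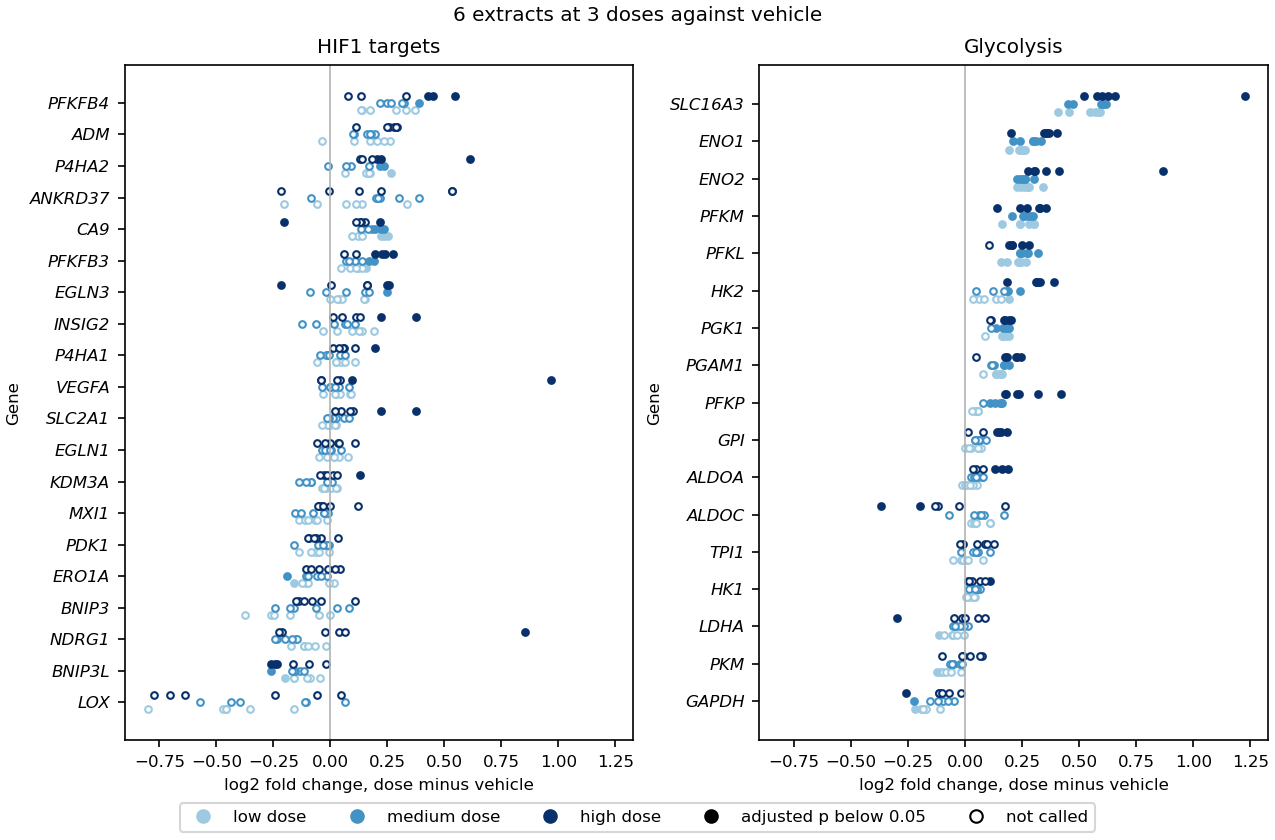
Log2 fold change of each member against vehicle for 6 extracts at low, medium and high dose (light to dark points), HIF1 targets on the left and glycolytic genes on the right. Filled points have an adjusted p below 0.05, and all points share the same 3 vehicle libraries. SLC16A3 lies to the right of 0.4 at every dose, and GAPDH to the left of 0.

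SLC16A3 was higher than vehicle in 18 of 18 comparisons, also in each of the alternatives run. Its log2 fold changes ran from 0.41 with low-dose Ginseng to 1.23 with high-dose Glycyrrhiza. At the high dose it was at 59.99, 51.6 and 53.1 CPM with Palmul-tang, 56.1, 59.4 and 57.8 with Sibjeondaebo-tang, 56.99, 57.05 and 55.9 with Poria, 56.9, 53.2 and 56.6 with Atractylodes and 49.5, 55.5 and 53.2 with Ginseng, against 40.5, 38.4 and 30.9 CPM in vehicle. Every one of these was above every vehicle library. Outside Glycyrrhiza it was not called between high and low dose, with log2 changes of 0.01 to 0.12. Without vehicle replicate 3, the lowest of the 3, the range was 0.30 to 1.12.

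ENO1 was higher in 18 of 18 comparisons, by 0.19 to 0.40, with vehicle at 1554, 1457 and 1328 CPM. It stayed called in 18 without vehicle replicate 3 and in 16 with the mitochondrial covariate. ENO2 was higher in 18 of 18, by 0.23 to 0.87, but in 5 without vehicle replicate 3 and in 8 with the covariate. PFKM was higher in 18 and PFKL in 17 comparisons, by 0.14 to 0.36 and 0.11 to 0.32, and without vehicle replicate 3 they were called in 15 and 16. PGK1 was higher in 15 comparisons and in 3 without that library, and in 0 with the covariate. PGAM1 was higher in 14, PFKP in 11 and HK2 in 10 comparisons, in 8, 9 and 5 without vehicle replicate 3, and in 3, 6 and 3 with the covariate. GAPDH was lower in 4 comparisons, with log2 fold changes of -0.26 to -0.02 over the 18. Without vehicle replicate 3 it was lower in 1, with changes of -0.21 to 0.03, and with the covariate in 1. PKM was lower in 2 comparisons, and in 0 without any single vehicle library or with the covariate. ALDOC was lower in 2 comparisons and in 1 without vehicle replicate 2 or 3. LDHA was lower in 2 and in 1 without vehicle replicate 1 or 3, and TPI1 was called in none.

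Among the HIF1 targets CA9 was higher in 8 comparisons, 7 of them at low or medium doses, and lower with high-dose Glycyrrhiza (-0.20 ± 0.07, adjusted p = 0.0137). It was higher in 15, 2 and 1 comparisons without vehicle replicates 1, 2 and 3 in turn and in 3 with the covariate, and the lower call was lost without vehicle replicate 1. PFKFB3 was higher in 7 comparisons, P4HA2 in 6, PFKFB4, which like PFKFB3 makes a phosphofructokinase activator, in 4, and EGLN3 in 3. Without vehicle replicate 3 these numbers were 3, 1, 1 and 0, and with the covariate 1, 1, 1 and 0. With the replicate number as a block they were 8, 6, 8 and 3. EGLN3 was also lower in 1 comparison, and in 0 without vehicle replicate 1 or 2. BNIP3L, a mitophagy receptor, was lower in 5 and in 3 without vehicle replicate 3, and ERO1A was lower in 2 and in 0 without vehicle replicate 2. VEGFA was higher with high-dose Glycyrrhiza (0.97 ± 0.04, adjusted p = 1.51e-26) and with high-dose Poria (0.10). The Poria call was lost without any one of the vehicle libraries, with DESeq2 and with both groups fitted alone. With the replicate number as a block VEGFA was higher in 4 comparisons. NDRG1 was higher with high-dose Glycyrrhiza (0.85 ± 0.09, adjusted p = 1.26e-10) and was called with no other treatment. It was lower in 2 comparisons without vehicle replicate 1, and in 5 with the replicate number as a block. PFKFB4 had its highest value, 0.55 ± 0.14, with high-dose Glycyrrhiza too. SLC2A1 was higher in 2 comparisons, with log2 fold changes of -0.035 to 0.38 over the 18, and in 2 without vehicle replicate 3 or with the covariate. INSIG2 was higher in 2, and in 1 without vehicle replicate 3 or with the covariate. P4HA1 and KDM3A were higher in 1 each, and in 0 with the covariate, where KDM3A was lower in 4. ADM, ANKRD37, BNIP3, EGLN1, LOX, MXI1 and PDK1 were called in none of the 18. Of the HIF machinery HIF1A was lower than vehicle in 16 of 18 comparisons, the others being low-dose Sibjeondaebo-tang and high-dose Glycyrrhiza, with log2 fold changes from -0.22 to -0.01 over the 18. CITED2, which competes with HIF1A for its coactivators, and the coactivator CREBBP were lower in 18, and the coactivator EP300 in 16. The prolyl hydroxylase EGLN2 was higher in 18, HIF1AN, which hydroxylates HIF1A at another residue, in 15 and VHL in 12, while ARNT was lower in 3 and EPAS1 in 1. These counts of the HIF machinery rest on the same vehicle libraries. They were not checked without a vehicle library or with the covariate. The share of all tested genes called in as many of the 18 comparisons was not counted.

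**Figure D4:**
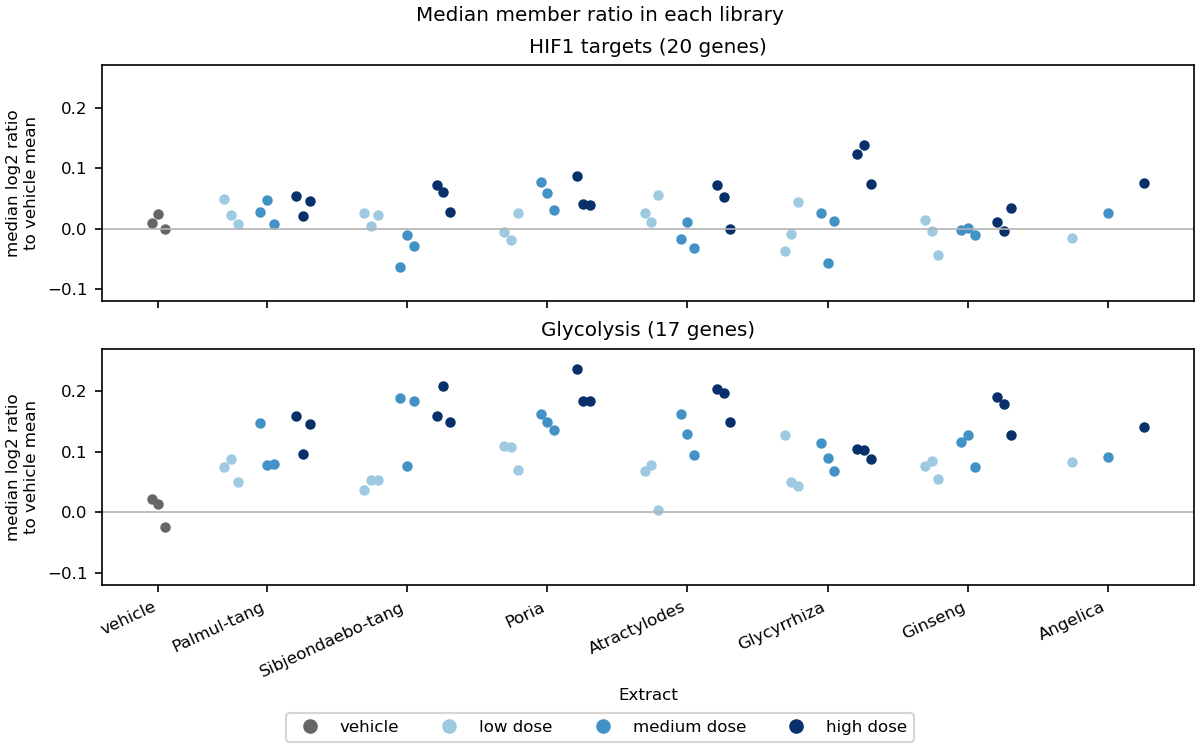
Median over the members of the log2 ratio of CPM to the vehicle mean in each library, for 20 HIF1 targets (top) and 17 glycolytic genes (bottom), with vehicle at the left and doses low to high within each extract. A constant was added to every CPM before the log, which shrinks the ratios of members at low CPM. The high-dose Glycyrrhiza libraries lie at 0.07 to 0.14 for the HIF1 targets and at 0.09 to 0.10 for the glycolytic genes, and every treated library is above 0 in the lower panel.

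As a share of all counts the HIF1 targets made up 0.0976% ± 0.00512 in vehicle, 0.101% ± 0.00221 with low-dose Glycyrrhiza and 0.123% ± 0.00089 with the high dose (SD, n = 3). The glycolytic genes made up 1.23% ± 0.0141 in vehicle, 1.29% ± 0.0351 with low-dose Glycyrrhiza and 1.24% ± 0.0155 with the high dose. The highest glycolytic share among groups of 3 was 1.38% ± 0.0244, with high-dose Poria.

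Angelica had 1 library a dose and is described with no test. In its 320 µg/mL library 14 of the 17 glycolytic genes lay above the range of the 3 vehicle libraries, 2 below and 1 within, where 32.1% of all tested genes lay above and 31.7% below. Of the 20 HIF1 targets 8 lay above, 5 below and 7 within. Its PDK1 was at 30.2, 31.3 and 37.6 CPM from low to high dose, EGLN1 at 44.8, 49.0 and 53.2 CPM and GPI at 842, 823 and 910 CPM. These 3 high-dose values and that of LOX, 1.18 CPM, were above all 57 libraries of the other groups, as were 4.97% of all tested genes. For LOX, with few counts, the highest of the 57 was at 1.16 CPM. VEGFA, at 70.1, 66.9 and 66.9 CPM from low to high dose, and NDRG1, at 15.3, 13.5 and 14.1 CPM, had high-dose values below the vehicle range. SLC16A3 was at 47.0, 45.5 and 44.9 CPM, above the vehicle libraries at each dose. CPM of Angelica were scaled by TMM factors over all 60 libraries, and those of the other groups by factors over 57. Placements by a narrow margin are uncertain to that extent.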

How the data were processed

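RNA of HT29 cells was sequenced, and the authors deposited expected counts per gene, made with RSEM 1.3.3 after FastQC 0.11.9, Trim Galore 0.6.5 and STAR 2.7.3a on hg38, per the submitters' processing notes. Between 22.3% and 26.6% of a library's values above 0 were not whole, and all were rounded. The table's 213 other columns of samples were not used.

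The 57 libraries of 19 groups were fitted together in edgeR 4.0.16 (R 4.3.3), with filterByExpr, TMM factors of 0.956 to 1.031 and the quasi-likelihood test with 38 residual degrees of freedom, in 33 comparisons adjusted by Benjamini-Hochberg over 16445 genes each. TPM used exon-union lengths of GENCODE release 29. The members and lists were chosen with earlier results of these data known. Members called by dose in 2 extracts, called in a direct or extract-against-extract comparison, or among the 3 largest of a high dose were to be given by library, with up to 3 called genes from each further list. One gene that this rule names is not reported here. Pearson's r over genes was 0.9954 to 0.9987 within groups, and chi-square over its degrees of freedom was 2.40 to 24.0, so no library repeated another. On simulated counts for Glycyrrhiza high against low dose (16141 genes), 55.2%, 97% and 100% of genes changed 1.2-, 1.5- and 2-fold were recovered. The changed genes were drawn from those with higher counts, and all genes were given the same spread. These shares therefore do not cover members with few counts, such as ANKRD37 and LOX, or genes with a wider spread.

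Same-numbered libraries were checked for shared deviations from their group means in 27 comparisons, and between high and low Ginseng alone were all 3 correlations over 0.1 (0.155, 0.203 and 0.359). That pairing rests on these values, since the labels do not say what a number marks. The alternatives tried were DESeq2 1.42.0, RLE factors, an unfiltered table, separate fits of the groups compared, the replicate number as a block, the mitochondrial share as a covariate, another gene length and each library left out. The block was shared by all 57 libraries, and the covariate was used in the vehicle comparisons only. The alternatives were recorded for the members only, so calls of genes from the further lists were not checked under them.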

Additional observations from a re-analysis of the deposited data

Results flagged for a closer look

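The values below are differences between an extract's log2 change from low to high dose and the mean change of the other 5 extracts, each past an adjusted p of 0.05 in edgeR's quasi-likelihood test. For Glycyrrhiza the HIF1 targets with a higher value were VEGFA (1.04), NDRG1 (0.95), LOX (0.95), P4HA2 (0.56), SLC2A1 (0.29), INSIG2 (0.27), BNIP3L (0.22), KDM3A (0.17), ERO1A (0.16) and EGLN1 (0.14). The glycolytic genes with a higher value were SLC16A3 (0.71), ENO2 (0.53) and PFKP (0.18). Lower values were those of CA9 (-0.44), LDHA (-0.35), EGLN3 (-0.3), ENO1 (-0.19), TPI1 (-0.18), PGAM1 (-0.16), PFKL (-0.15), PFKM (-0.15) and GPI (-0.11). VEGFA also differed with Ginseng (-0.32), Atractylodes (-0.24) and Sibjeondaebo-tang (-0.18), where the other extracts include Glycyrrhiza.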

How the results depend on the processing

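Of 278 called pairs of a member and a comparison, 149 lost the call under at least 1 alternative, and of 3236 gene values under alternatives 544 lost it and 0 turned direction. Of the 16 Glycyrrhiza calls between high and low dose, 9 held under all alternatives run (VEGFA, NDRG1, P4HA2, SLC2A1, CA9, SLC16A3, ENO2, PFKP and LDHA). The mitochondrial covariate was not among these, since it was used in the vehicle comparisons only. The cause of the changes below was not tested. With the mitochondrial share as a covariate, called members against vehicle fell from 12 to 4 (Palmul-tang) and 14 to 9 (Atractylodes) at the high dose, from 13 to 5 (Palmul-tang), 10 to 5 (Sibjeondaebo-tang), 9 to 5 (Poria) and 14 to 4 (Atractylodes) at the medium dose, and from 11 to 3 (Palmul-tang), 8 to 3 (Sibjeondaebo-tang), 10 to 5 (Atractylodes), 9 to 5 (Glycyrrhiza) and 6 to 1 (Ginseng) at the low dose. With the groups compared fitted alone, members called fell from 10 to 6 (Sibjeondaebo-tang) and 6 to 2 (Ginseng) at the medium dose against vehicle, from 9 to 4 (Poria), 9 to 5 (Glycyrrhiza) and 6 to 1 (Ginseng) at the low dose, from 4 to 1 (Poria), 5 to 2 (Atractylodes) and 6 to 0 (Ginseng) between high and low dose, and from 2 to 1 between Poria and Atractylodes. With no filter on low counts they went from 0 to 1 (Sibjeondaebo-tang) and 6 to 3 (Ginseng) between high and low dose, from 2 to 1 between Poria and Atractylodes, and from 0 to 1 (Palmul-tang and Poria) and 22 to 13 (Glycyrrhiza) against the other extracts' dose response, and the median was 0.0661 for HIF1 targets with Poria and -0.0331 for glycolysis with Glycyrrhiza. DESeq2 called 2 members between high and low Sibjeondaebo-tang in place of 0. With the replicate number as a block 1 member was called there, and against the other extracts' dose response 2 for Palmul-tang and 1 for Poria, in place of 0. The block moved no other count of called members in a comparison, both lists together, by over 1.5 times. Between high and low Ginseng it gave 8 calls in place of 6. Over the 18 vehicle comparisons it gave 15 lower HIF1 target pairs in place of 9. The longest transcript in place of exon-union length gave ENO1 98.98% of enolase and HK1 81.6% of hexokinase TPM.

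Leaving out 1 library at a time gave, against vehicle, 7 to 15 members for high-dose Palmul-tang, 5 to 14, 5 to 13 and 3 to 7 for medium-dose Palmul-tang, Atractylodes and Ginseng, and 4 to 11, 4 to 8, 4 to 10, 5 to 10 and 3 to 6 for low-dose Palmul-tang, Sibjeondaebo-tang, Poria, Atractylodes and Ginseng. The lowest number in each came without vehicle replicate 3, and for low-dose Ginseng also without its replicate 1. Between high and low dose it gave 0 to 1 for Sibjeondaebo-tang, 1 to 3 for Poria, 3 to 5 for Atractylodes, 10 to 16 for Glycyrrhiza and 2 to 4 for Ginseng. It gave 1 to 2 between Poria and Atractylodes, and against the other extracts' dose response 0 to 1 for Sibjeondaebo-tang and Poria, 1 to 2 for Atractylodes and 12 to 19 for Glycyrrhiza. Median log2 changes between high and low dose ranged, for HIF1 targets, from 0.0174 to 0.0309 (Palmul-tang), 0.0448 to 0.0781 (Poria), -0.0322 to 0.0136 (Atractylodes) and -0.0146 to 0.0355 (Ginseng), and, for glycolysis, from 0.0623 to 0.0879 (Palmul-tang), 0.0797 to 0.1222 (Poria), 0.036 to 0.0834 (Atractylodes) and -0.0369 to -0.005 (Glycyrrhiza). Precision was lowest for ANKRD37 and LOX, with 6 to 29 and 6 to 28 counts per library.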
